A study of Mus musculus with 15 samples.

Results

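The smooth muscle contractile genes followed here were Acta2, Tagln, Cnn1, Cnn2, Myl9, Tpm1, Tpm2, Cald1, Actn1 and Vcl. They were chosen by name, with earlier results of these data known, and all 10 had a row among the 12089 transcripts of the expression table. The study asked how mouse dental mesenchymal cells (mDMCs) change when they leave the embryo and grow in culture. mDMCs of ICR mice were taken from the molar tooth germs of embryonic day 14.5 embryos, in which the dental epithelium had been removed with dispase, and were made into single cells with trypsin. RNA-seq was performed on freshly isolated mDMCs (0 h, 3 libraries), on mDMCs cultured in medium with fetal bovine serum (FBS) for 12 h (2 libraries), 24 h (3), 36 h (3) and 48 h (3), and on dental mesenchymal tissue (1 library, with no replicate; how it was handled is not stated). No group carried a mutation or was given a drug. There was no culture without FBS among these libraries, so time in culture, plating and FBS cannot be told apart. The study's methods speak in general of independent experiments, but do not say that the RNA-seq replicates came from separate isolations, so the p-values measure the spread between these libraries, which may be technical.

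In smooth muscle, actin filaments built with Acta2 slide on myosin, and the regulatory light chain Myl9 must be phosphorylated for this to happen. Tropomyosins (Tpm1, Tpm2), caldesmon (Cald1), calponins (Cnn1, Cnn2) and transgelin (Tagln) bind along the actin filament, and α-actinin (Actn1) and vinculin (Vcl) tie filaments to each other and to the membrane at adhesions. Several of these genes are classical targets of serum response factor (Srf), which binds a DNA element called the CArG box and works with actin-sensing cofactors of the Mrtf family. The same genes are also known from myofibroblasts and from many cells grown on stiff plastic, so their expression does not name a cell type.

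The deposited values are whole numbers on a scale that all libraries share, called scores here. The median score was 721 and the largest was 127101 in each of the 15 libraries, and exactly 10 transcripts of each library held this largest score, the ceiling of the table. The next places form steps that are nearly the same in each library: ranks 11 to 20 held scores of 70508 to 70809, ranks 21 to 30 of 50354 to 50602, and ranks 31 to 40 of 40594 to 40739. A transcript near the top therefore moves in steps, and a change beyond the ceiling cannot be seen. The read depth of the libraries is unknown. Replicates 1 and 2 at 36 h differed far less than the other 12 replicate pairs, with a median absolute log2 difference of 0.0346 against 0.0823 to 0.207. Their difference was 1.17 to 1.32 times what counting noise would give if the scores were counts. They were counted as 1 sample (their mean), so that n = 2 at 36 h and 13 samples of mDMCs entered the fit. The epithelial markers summed to 14067 in 0 h replicate 1 and to 1514 and 1883 in the other 0 h libraries, so this library stood apart, and without it all 10 contractile genes were still called higher at each culture time.

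All 10 contractile genes rose by 12 h and were still higher than in freshly isolated mDMCs at 24, 36 and 48 h. Acta2 and Tagln went from scores between 304 and 545 to the ceiling, Cnn1 went from a score of 2 to over 900, and the other 7 genes rose several-fold. In limma on log2(score + 1), 10 of 10 were higher at 12 h (adjusted p = 7.29e-13 to 4.72e-06), and 10 of 10 at 24, 36 and 48 h. The smallest of these p-values is that of Tagln, whose spread in culture is fixed at 0 by the ceiling, as is that of Acta2. Among all 12079 transcripts tested, the share called higher was 28.7% for 12 h, 34.1% for 24 h, 33.5% for 36 h and 36.5% for 48 h. The median log2 change of the 10 genes was 2.86, 2.97, 2.83 and 2.75 for these times in order, while the median over all transcripts tested was between 0.017 and 0.031. Every cultured library lay above every 0 h library in 10 of 10 contractile genes, as was the case for 24.6% of all transcripts tested. The 10 genes were chosen with earlier results of these data known, so these contrasts with all transcripts are no independent test. In RNA from a mixture of cells, more cells of a type and more RNA per cell cannot be told apart.

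**Figure D1:**
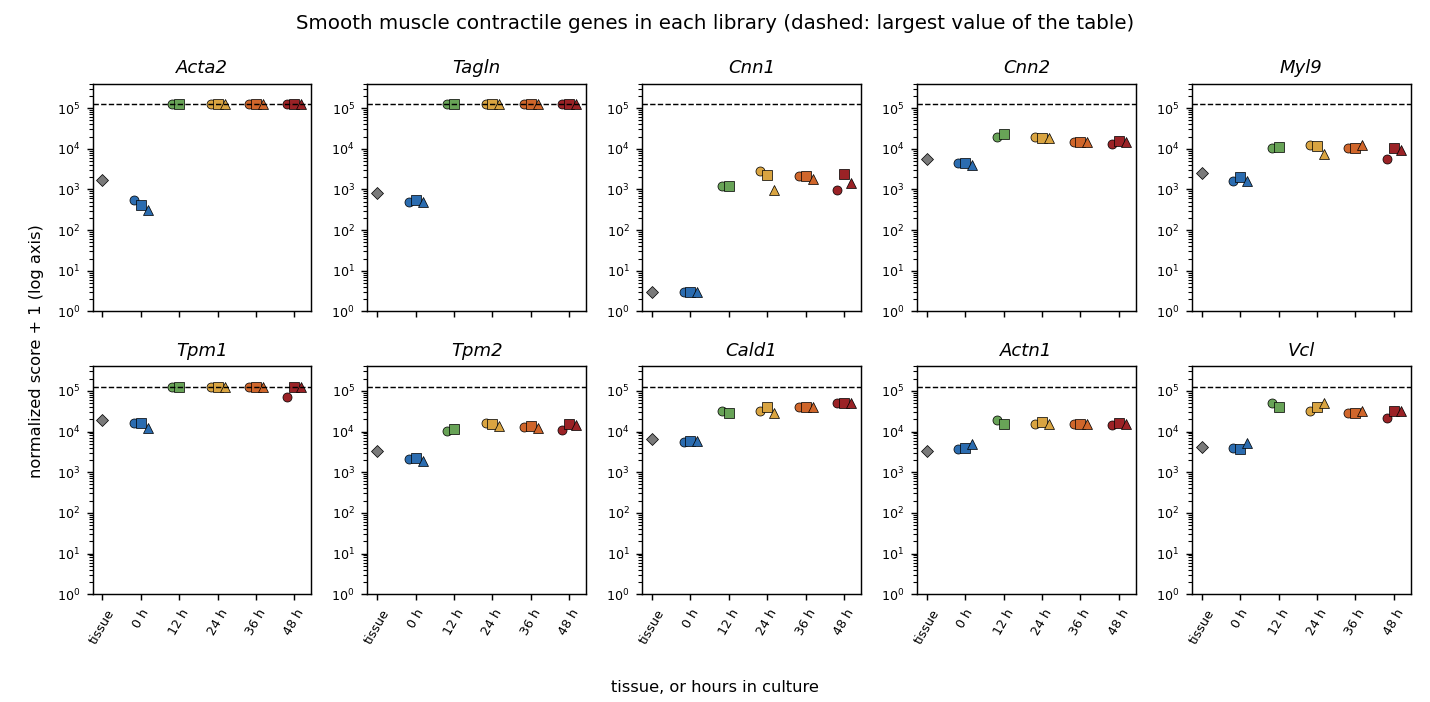
Score + 1 (log axis) of each contractile gene in each library, by tissue or hours in culture; circles, squares and triangles are replicates 1, 2 and 3, the diamond is the tissue, and the dashed line is the largest score of the table, 127101. The cultured libraries lie above the 0 h libraries and the tissue in each panel, and Acta2, Tagln and Tpm1 lie on the dashed line in culture, apart from Tpm1 in 48 h replicate 1 at 70645.

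Acta2, the smooth muscle actin, is listed as transcript ENSMUST00000039631, which spans chr19:34241090-34255590 (GRCm38, minus strand) with 9 exons. Its scores at 0 h were 543, 403 and 304, and the tissue had 1678. All 11 cultured libraries stood at the ceiling of 127101, and the groups were far apart. The log2 change was 8.29 ± 0.187 (SE) at 12 h and 8.29 ± 0.167 at 48 h (limma, adjusted p = 9.39e-11 and 2.42e-11). Because the cultured scores are capped, these changes are what the table can show and not the full change, and their spread in culture, an SD of 0, is set by the cap. Reads of Acta2 can be shared with the other actins, and how far the counting separated them was not tested.

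Tpm1 (chr9:67022590-67043907, minus strand, 8 exons) and Tpm2 (chr4:43514711-43523438, minus strand, 8 exons) encode tropomyosins, which lie along the actin filament and control access of myosin. Tpm1 had scores of 16511, 16511 and 12502 at 0 h and 19244 in the tissue. In culture it was at the ceiling in 10 of 11 libraries, and 48 h replicate 1 was the exception at 70645. Its log2 change was 3.08 ± 0.241 at 12 h and 2.80 ± 0.216 at 48 h (limma, adjusted p = 1.04e-06 and 3.75e-07). Tpm2 had scores of 2103, 2267 and 1846 at 0 h and 3357 in the tissue. It reached 10081 and 11608 at 12 h, 16498, 15601 and 13284 at 24 h, 12952, 13284 and 12492 at 36 h. The 48 h libraries had 11063, 15089 and 14364. These libraries never met the ceiling, and the rise of Tpm2 was 5.24-fold at 12 h (95% interval 4.18 to 6.56) and 6.48-fold at 48 h (5.30 to 7.93). The transcript listed for Tpm2 is annotated as a processed transcript, not as a coding one.

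Among the proteins bound along the actin filament, Tagln (transgelin, chr9:45929619-45936058, minus strand, 5 exons) had scores of 486, 545 and 486 at 0 h and 834 in the tissue. It stood at the ceiling in 11 of 11 cultured libraries, so that its log2 change of 7.97 ± 0.107 at 12 h and 7.97 ± 0.0958 at 48 h (limma, adjusted p = 7.29e-13 and 2.00e-13) is also capped. Cald1 (caldesmon, which inhibits actomyosin until it is released; chr6:34598500-34775454, plus strand, 14 exons) had scores of 5523, 5882 and 5882 at 0 h and 6476 in the tissue. It reached 31728 and 28694 at 12 h and 31728, 40603 and 28694 at 24 h, then held 40603 in all 3 libraries at 36 h and 50368 in all 3 at 48 h. The last of these values are neighbouring steps of the scale, so their SD of 0 does not measure the spread between replicates. The rise of Cald1 was 5.24-fold at 12 h (4.25 to 6.45) and 8.74-fold at 48 h (7.25 to 10.5).

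The calponins bind actin and slow myosin, and Cnn1 is the form used as a marker of differentiated smooth muscle, while Cnn2 is made by many cell types. Cnn1 (chr9:22099268-22109630, plus strand, 7 exons) was listed at a score of 2 in all 3 libraries at 0 h and in the tissue. It reached 1181 and 1232 at 12 h, 2769, 2269 and 995 at 24 h, 2160, 2110 and 1832 at 36 h. The 48 h libraries had 966, 2425 and 1427. No cultured library came near the earlier score, but the spread within 24 h and 48 h was wide. The log2 change of Cnn1 was 8.65 ± 0.402 at 12 h and 8.96 ± 0.359 at 48 h (limma, adjusted p = 2.28e-08 and 2.08e-09). Cnn1 was under 1 ppm of the library total at 0 h and passed the filter on low values through the cultured libraries alone. With no filter, and all transcripts of the table in the fit, the adjusted p was 2.29e-08 for 12 h and 2.09e-09 for 48 h. With a start of 2 the size depends on the pseudocount: at 48 h it was 9.48 with a pseudocount of 0.1 and 6.39 with one of 16.

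Cnn2 (chr10:79988584-79996062, plus strand, 7 exons) was already well expressed, with scores of 4373, 4373 and 4055 at 0 h and 5602 in the tissue. It reached 19232 and 23192 at 12 h, with 19232, 18505 and 18505 in the 24 h libraries, 15081, 14356 and 14356 in those of 36 h, and 13280, 15596 and 14356 in those of 48 h. The highest score of Cnn2 was that of 12 h replicate 2, and at 12 h it was 4.95-fold above 0 h (4.22 to 5.81), against 3.37-fold at 48 h (2.92 to 3.89). The difference between the paralogs, log2(score + 1) of Cnn1 minus that of Cnn2, was -10.47 ± 0.0629 (SD, n = 3) at 0 h and -3.38 ± 0.622 (SD, n = 10) in culture. The SD in culture mixes times with replicates, since the means at 12, 24, 36 and 48 h were -4.129, -3.346, -2.877 and -3.265, and the test below pools these times. At 0 h Cnn1 did not vary, so the SD there is that of Cnn2 alone. Cnn1 thus rose by 7.09 more than Cnn2 on the log2 scale, a size that also depends on the pseudocount, with 7.60 for one of 0.1 and 4.52 for one of 16 (exact two-sided permutation test over 286 splits, p = 0.00699, the smallest it can give, and 0.014 after adjustment over the 2 paralog pairs compared). With the 48 h libraries alone, the difference was 7.21 and the smallest p that 3 against 3 libraries allow is 0.1. For Tpm1 minus Tpm2, the difference was 2.87 ± 0.107 (SD, n = 3) at 0 h and 3.19 ± 0.277 (SD, n = 10) in culture, a change of 0.32 (exact two-sided permutation test, p = 0.0839, and 0.0182 without 48 h replicate 1, where the change was 0.38). That comparison is limited by the ceiling, which Tpm1 held in culture.

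Myl9, the regulatory myosin light chain of smooth muscle and nonmuscle myosin (chr2:156775420-156781658, plus strand, 4 exons), had scores of 1621, 2007 and 1579 at 0 h and 2602 in the tissue. It reached 10427 and 11057 at 12 h, 12057, 11599 and 7580 at 24 h, 10701, 10701 and 12057 at 36 h. The 48 h libraries had 5665, 10427 and 9399. All cultured libraries were above those at 0 h, and the lowest of them were 48 h replicate 1 and 24 h replicate 3. The rise was 6.22-fold at 12 h (4.26 to 9.09) and 4.76-fold at 48 h (3.39 to 6.69).

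At the filament ends, Actn1, an α-actinin that crosslinks actin (chr12:80167547-80260371, minus strand, 21 exons), had scores of 3617, 4029 and 4902 at 0 h and 3346 in the tissue. It was between 14408 and 19261 in culture, with 19261 and 15625 at 12 h, 15625, 17403 and 15625 by 24 h, 15625, 15625 and 15128 by 36 h, and 14408, 16542 and 15128 by 48 h. It rose 4.18-fold at 12 h (3.40 to 5.15) and 3.69-fold at 48 h (3.07 to 4.45). Vcl, vinculin of focal adhesions (chr14:20929398-21033676, plus strand, 21 exons), had scores of 3969, 3721 and 5222 at 0 h and 4228 in the tissue. It reached 50500 and 40680 at 12 h and 31878, 40680 and 50500 by 24 h. The 36 h libraries had 28872, 28872 and 31878, and the 48 h libraries 20919, 31878 and 31878. Its highest mean was the one at 12 h, 10.7-fold above 0 h (7.46 to 15.2), and at 48 h it was 6.51-fold above (4.74 to 8.94).

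Between neighbouring times in culture, no contractile gene was called after adjustment. Acta2 and Tagln stood at the ceiling throughout and Tpm1 did up to 36 h, so their change was fixed at 0 over those steps, and 7 genes were never capped. From 36 h to 48 h Tpm1 could only fall from the ceiling (log2 change -0.28, not called). In limma, 0 of 10 were called between 12 h and 24 h, 0 of 10 between 24 h and 36 h and 0 of 10 between 36 h and 48 h, where 6.47%, 9.11% and 0% of all transcripts were called in either direction. These shares depend on single libraries: with a library left out, the first step gave 97 to 759 transcripts in place of 782 (lowest without 12 h replicate 1), the second 132 to 1336 in place of 1100 (lowest without 36 h replicates 1 and 2), and the last 0 to 17 in place of 0 (17 without 48 h replicate 1). The lowest counts of the first 2 steps come from fits in which 12 h or 36 h has 1 sample, which is then assumed to vary like the other groups. Where each time kept at least 2 samples, the first step still gave 209 without 24 h replicate 2 and the second 340 without 24 h replicate 3. Kept separate, the 36 h replicates gave 2375 for the second step. At an unadjusted p below 0.05 there was 1 of the 10 genes in each step, where 23%, 27.4% and 9.16% of all transcripts were, so these single genes do not stand above the background. Tpm2 was 0.48 higher on the log2 scale at 24 h than at 12 h (unadjusted p = 0.00774, adjusted p = 0.0835). Cnn2 was lower at 36 h than at 24 h, with a log2 change of -0.37 (unadjusted p = 0.0049, adjusted p = 0.0517), and it was called when 36 h replicates 1 and 2 were kept separate (1 of 10) and when only these time points were fitted (1 of 10). Cald1 was 0.31 higher at 48 h than at 36 h, which is 1 step of the scale (unadjusted p = 0.0441, adjusted p = 0.528).

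The tissue had scores above all 0 h libraries in 7 of 10 contractile genes, within them in 2 (Cnn1 and Vcl) and below them in 1 (Actn1), where 29.7% of all transcripts tested lay above. The largest ratio of tissue to the 0 h mean was 4.03 for Acta2, followed by 1.65 for Tagln, 1.62 for Tpm2 and 1.5 for Myl9. With 1 tissue library these differences have no replicate check. Markers of skeletal and cardiac muscle moved the same way, with a summed score over 10 genes of 6139 in the tissue and 332 to 1188 at 0 h, and their part in these ratios was not tested. In each of the 10 contractile genes, all 11 cultured libraries were above the tissue as well, as was the case for 34.1% of all transcripts tested.

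In culture, contractile and actin-linked genes took a large share of the top of the table. The 10 contractile genes held 0 of the 10 ceiling places in each 0 h library and in the tissue, and 3 of 10 in each cultured library except 48 h replicate 1, with 2. Among other genes of the actin cytoskeleton, cytoplasmic β-actin (Actb) and the crosslinker filamin A (Flna) were at the ceiling in all 11 cultured libraries. At 0 h, Flna scored 70616, 70616 and 50435, and Actb scored 50420, 50420 and 127101. The other places at 0 h included collagens such as Col3a1, and Eef1a1, a translation factor.

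Replicates at 24 h and 48 h differed along many of these genes at a time. In 48 h replicate 1, 7 of the 7 contractile genes with a single lowest library had their lowest score, where 39.5% of all transcripts did. Of the 15 other smooth muscle genes listed with them, 11 were also lowest there. In 24 h replicate 3, 4 of 5 contractile genes and 9 of 14 other smooth muscle genes were lowest, where 33.1% of all transcripts were. Actg2 scored 5142 in 48 h replicate 1 against 15046 and 12458, and Myh11 scored 472 against 1231 and 901. The summed skeletal and cardiac muscle markers were also low in 24 h replicate 3, at 600 against 2941 and 2144, but not in 48 h replicate 1, at 2887 against 2009 and 1257, and their part was not tested.

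**Figure D2:**
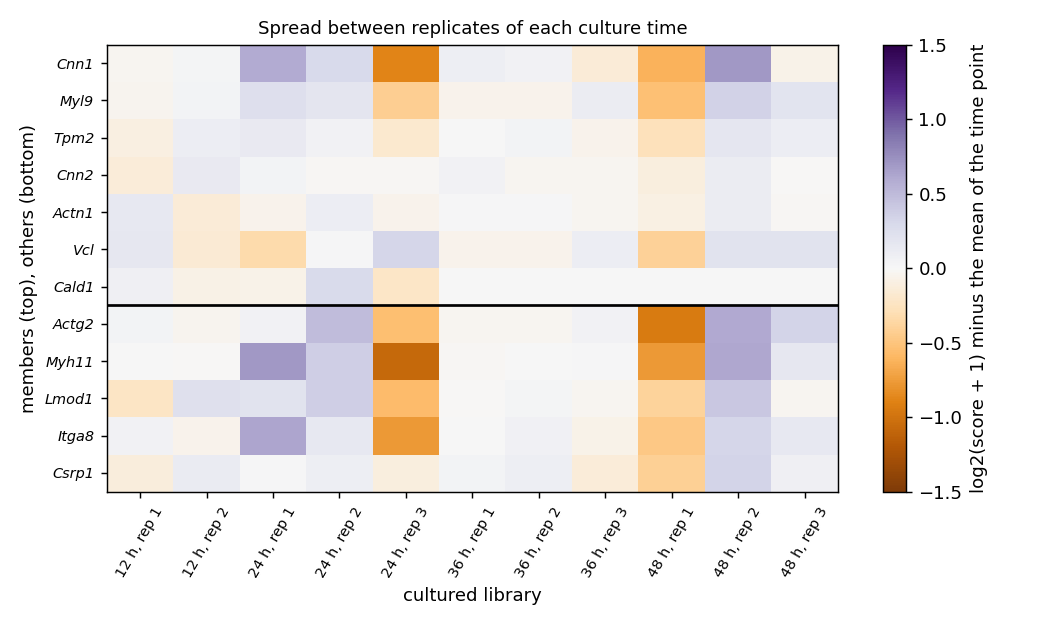
Log2(score + 1) of each cultured library minus the mean of its time point, for the 7 contractile genes that never met the ceiling (above the line) and 5 other smooth muscle genes (below it). Orange marks libraries below their time point, and in 24 h replicate 3 and 48 h replicate 1 Cnn1, Myl9, Tpm2 and the 5 lower genes lie below their time point.

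The promoters of the contractile genes were read from RefSeq (GRCm38.p6), 250 bases before and 50 after each start, to show which of them hold the element that Srf binds. A CArG box is CC, 6 bases that are each A or T, and GG. It was searched on both strands, exactly and with at most 1 mismatch among the 6 middle bases. Promoters were found for 9 of 10 genes, 10 in all, since Cald1 had a pair of them. An exact box was in 3 of 10 promoters (those of Cnn2, Myl9 and Vcl), against 1.63% of all 32851 promoters, and an exact or near box was in 4 of 10, against 9.98%. Acta2 held near boxes only, and no box was in these windows of Cnn1, Tpm1, Tpm2, Cald1 and Actn1. Each box is given in capitals within 30 bases, with the distance from the start to the box, and those of Srf itself are given for comparison.
Acta2, near box, 84 bases before the start, chr19:34255438-34255467, minus strand: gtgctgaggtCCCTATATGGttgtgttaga
Acta2, near box, 34 bases before the start, chr19:34255388-34255417, minus strand: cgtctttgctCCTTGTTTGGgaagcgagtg
Cnn2, exact box, 56 bases before the start, chr10:79988534-79988563, plus strand: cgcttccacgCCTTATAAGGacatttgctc
Myl9, exact box, 161 bases before the start, chr2:156775293-156775322, plus strand: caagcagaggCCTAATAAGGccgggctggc
Myl9, near box, 99 bases before the start, chr2:156775355-156775384, plus strand: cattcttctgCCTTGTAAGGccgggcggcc
Vcl, exact box, 227 bases before the start, chr14:20929161-20929190, plus strand: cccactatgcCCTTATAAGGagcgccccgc
Srf, exact box, 82 bases before the start, chr17:46556225-46556254, minus strand: ctggggctcgCCATATAAGGagcggcctcg
Srf, exact box, 62 bases before the start, chr17:46556205-46556234, minus strand: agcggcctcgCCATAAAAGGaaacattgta

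Cnn2 and Vcl share the same 10 bases of the box. A further motif, CATTCC, the core that TEAD factors bind, was in 4 of 10 promoters (those of Acta2, Tpm1 and Vcl and the first of Cald1), against 14.7% of all. TATAAA, which a CArG box can contain, was in 1 of 10 (the second of Cald1), against 13.6%, and in no box of these genes. Vcl was the gene with an exact box and CATTCC in 1 window. Its 250 bases before the start, chr14:20929148-20929397 on the plus strand, are given with the box and the CATTCC match, which reads GGAATG on this strand, in capitals.
Vcl: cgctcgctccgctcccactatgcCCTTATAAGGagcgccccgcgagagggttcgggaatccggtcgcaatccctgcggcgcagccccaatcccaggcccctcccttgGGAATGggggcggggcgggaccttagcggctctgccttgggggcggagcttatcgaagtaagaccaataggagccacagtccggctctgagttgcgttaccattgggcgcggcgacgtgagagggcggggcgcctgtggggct
A match describes letters in a window, and binding was not measured.

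Srf itself was called higher at 12 h and 24 h, but not at 36 h or 48 h. Its scores were 2159, 2711 and 2859 at 0 h, 4300 and 4608 at 12 h, 3468, 3770 and 3991 at 24 h, 2612, 2540 and 2799 at 36 h. The 48 h libraries had 2150, 3355 and 2711. The log2 change of Srf from 0 h was 0.80 ± 0.167 at 12 h and 0.55 ± 0.15 at 24 h (limma, adjusted p = 0.00165 and 0.00681), and 0.07 ± 0.15 at 48 h (adjusted p = 0.67). The difference between 12 h and 48 h was not tested. Of 10 listed genes for Srf and its cofactors, 9 had a row, and 5 were higher and 1 lower at 12 h, and 4 higher and 3 lower at 48 h. Among all transcripts tested, 28.7% were higher and 27.5% lower at 12 h, and 36.5% higher and 33.5% lower at 48 h, so the 48 h counts of this list lie near those of all transcripts. Mrtfa (listed as Mkl1), an actin-sensing coactivator of Srf, went from 225 to 349 at 0 h to 1264 to 1590 at 48 h, with a log2 change of 2.40 ± 0.227 (adjusted p = 1.91e-06). Its relative Mrtfb (Mkl2) was lower at 48 h, by -0.75 ± 0.282 on the log2 scale (adjusted p = 0.0328). Scai, a suppressor of Mrtf activity, fell in score from 1385 to 1591 at 0 h to 460 to 492 at 48 h, with a log2 change of -1.63 ± 0.0869 (adjusted p = 1.88e-08). The LIM proteins Fhl1 and Fhl2, which bind actin-linked factors, rose by 3.67 ± 0.264 and 3.71 ± 0.153 (adjusted p = 2.11e-07 and 2.66e-09). Among the ETS cofactors that compete with Mrtf proteins, Elk3 rose by 0.64 ± 0.102 at 48 h, Elk1 was lower by -0.36 ± 0.12 (adjusted p = 0.000136 and 0.0196), and Elk4 was not called, although it was called lower at 48 h without 0 h replicate 1 (adjusted p = 0.0313) and higher at 12 h without 12 h replicate 2 (0.0466, with 1 sample left at 12 h). The calls of Mrtfb and Elk1 were lost without 0 h replicate 3 (adjusted p = 0.136 and 0.056) or without 48 h replicate 1 (0.0721 and 0.0790), which left 1 lower gene of the 9. The call of Elk1 was also lost when only 0 h and 48 h were fitted (0.0538), and that of Mrtfb also without 48 h replicate 2 (0.0905).

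The other smooth muscle genes changed in part like the contractile genes. Of 18 listed, 15 had a row, and 12 were higher and 2 lower at 12 h, and 11 higher and 2 lower at 48 h, with a median log2 change of 1.97 and 1.64, against 28.7% higher and 27.5% lower among all transcripts at 12 h and 36.5% and 33.5% at 48 h. Actg2, the enteric smooth muscle actin, went from scores of 11, 12 and 12 at 0 h and 32 in the tissue to 2911 and 2763 at 12 h and 5142, 15046 and 12458 at 48 h. Lmod1, a leiomodin that nucleates actin filaments in smooth muscle, went from 19, 18 and 19 to 1029 and 1419 at 12 h and 1400, 2463 and 1803 at 48 h. Myh11, the smooth muscle myosin heavy chain, went from 32, 66 and 59 to 467 and 462 at 12 h and 472, 1231 and 901 at 48 h. Their log2 changes at 48 h were 9.61 ± 0.338 for Actg2, 6.55 ± 0.244 for Lmod1 and 3.98 ± 0.446 for Myh11 (limma, adjusted p = 8.30e-10, 1.25e-09 and 7.84e-06). Actg2 and Lmod1 were under 1 ppm in all 0 h libraries and passed the filter through culture. With no filter, the adjusted p at 48 h was 8.31e-10 for Actg2 and 1.255e-09 for Lmod1, and with at least 1 ppm asked of all libraries 9 genes were higher at 12 h and 9 at 48 h. With a pseudocount of 16 the change at 48 h was 8.48 for Actg2 and 5.74 for Lmod1.

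At 48 h the rises were 2.28 ± 0.16 for Csrp1 and 1.64 ± 0.138 for Csrp2, LIM proteins of smooth muscle, 2.39 ± 0.106 for Tagln2, 1.93 ± 0.131 for Pdlim7, 1.33 ± 0.113 for smoothelin (Smtn), 1.33 ± 0.303 for the integrin Itga8 and 0.60 ± 0.0921 for Cnn3. Synpo2 and the neuronal transgelin Tagln3 were lower, by -2.71 ± 0.329 and -2.99 ± 0.277, from scores of 122 to 270 and 165 to 237 at 0 h. Not all genes of smooth muscle followed. Mylk, the kinase that phosphorylates Myl9, scored 1237, 1517 and 1359 at 0 h and 672, 938 and 799 at 48 h, and was not called (log2 change -0.78 ± 0.382, adjusted p = 0.0874). Desmin (Des), an intermediate filament of muscle, rose by 2.67 ± 0.7 at 12 h (adjusted p = 0.0066) and was not called at 48 h (1.17 ± 0.626, adjusted p = 0.116), but a block for replicate in the model gave a call there (adjusted p = 0.00584). Mylk was called lower when only 0 h and 48 h were fitted (adjusted p = 0.002).

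**Figure D3:**
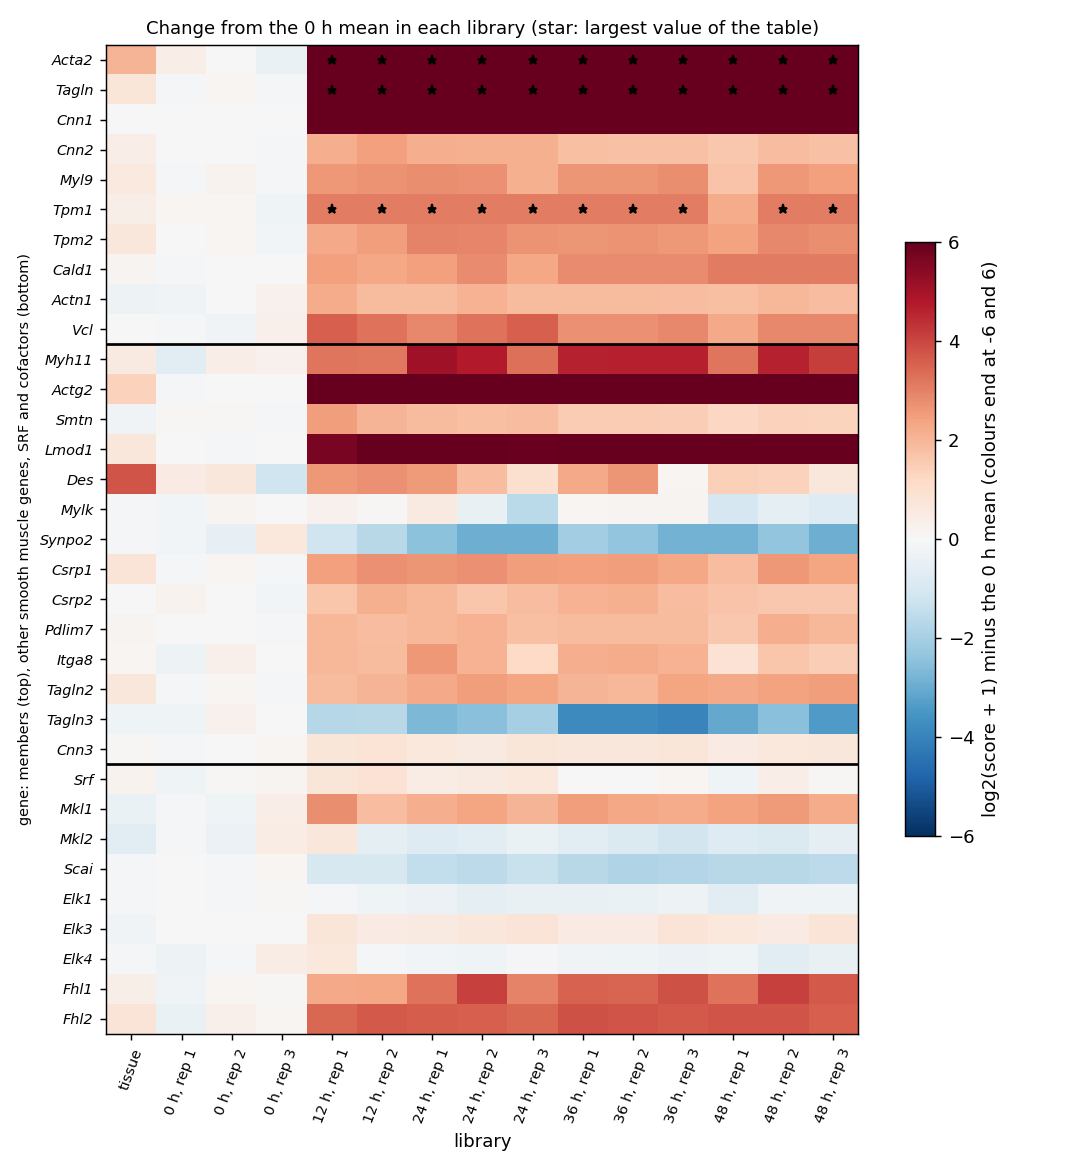
Log2(score + 1) of each library minus the 0 h mean, for the 10 contractile genes (top), 14 of the 15 other smooth muscle genes (middle) and 9 genes of Srf and its cofactors (bottom); stars mark scores at the ceiling of 127101, and colours end at -6 and 6. Cnn1, Actg2 and Lmod1 are the darkest red beside the capped Acta2 and Tagln, and Synpo2, Tagln3 and Scai are blue in culture.

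Genes of the nonmuscle cytoskeleton and of adhesions were also mostly higher, where 28.7% of all transcripts were higher and 27.5% lower at 12 h, and 36.5% higher and 33.5% lower at 48 h. Of 13 nonmuscle actins, myosins and crosslinkers, 12 were higher and 0 lower at 12 h, and 11 higher and 1 lower at 48 h. Myh9, a nonmuscle myosin heavy chain, rose by 2.72 ± 0.139 and Myl6, the essential light chain, by 2.06 ± 0.18 on the log2 scale at 48 h. Myh10 was the gene that was lower, by -0.37 ± 0.14 (limma, adjusted p = 0.0333), after it had been higher at 12 h, and it was not called at 48 h without any of 0 h replicates 1 and 3 and 48 h replicates 1 and 3 (0 genes lower). Of 16 focal adhesion partners of vinculin, 11 were higher and 3 lower at 12 h, and 10 higher and 1 lower at 48 h. Zyxin (Zyx) rose by 2.48 ± 0.26, Lpp by 1.98 ± 0.32, Bcar1 by 1.82 ± 0.121 and the integrin Itgb1 by 1.60 ± 0.103 at 48 h. Itgb1 held a score of 23242 in all 0 h libraries and 70704 in all cultured ones, which are steps of the scale, so its SE does not measure the spread between replicates. Myh9 likewise held 70616 in all 48 h libraries. Ptk2, focal adhesion kinase, was lower at 48 h by -0.20 ± 0.0715 (adjusted p = 0.0285), a call that was lost without 0 h replicate 1, 0 h replicate 2 or 48 h replicate 1 (0 genes lower).

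The genes that mark pericytes and vascular smooth muscle were called in both directions, as were all transcripts. Of 9 with a row, 3 were higher and 5 lower at 12 h, and 3 higher and 4 lower at 48 h. Of all transcripts, 28.7% were higher and 27.5% lower at 12 h, and 36.5% higher and 33.5% lower at 48 h, so these few genes do not stand apart by their counts at 48 h. The call of Pdgfrb as lower at 12 h was lost without 12 h replicate 2 (adjusted p = 0.142), a fit that leaves 1 sample at 12 h, assumed to vary like the other groups. Rgs5, a pericyte marker, had scores of 1908, 2515 and 2308 at 0 h and 2291 in the tissue, and 134, 131 and 170 at 48 h. Abcc9 went from 217, 297 and 280 to 8, 5 and 7, and Kcnj8, which forms a potassium channel with it, from 172, 368 and 141 to 4, 9 and 1. All cultured libraries were below all 0 h libraries for these genes. At 48 h the log2 changes were -3.94 ± 0.22 for Rgs5, -5.12 ± 0.281 for Abcc9, -5.49 ± 0.692 for Kcnj8 and -0.80 ± 0.166 for Notch3 (limma, adjusted p = 2.72e-08, 2.40e-08, 2.13e-05 and 0.000994). The size for Abcc9 and Kcnj8, whose scores ended at 1 to 9, depends on the pseudocount: it was -5.30 and -5.91 with one of 0.1 and -3.62 and -3.46 with one of 16. Both were under 1 ppm in all cultured libraries and passed the filter through 0 h alone among the mDMC libraries, and with no filter the adjusted p at 48 h was 2.31e-08 and 2.11e-05. Beside Myh11, the markers Mcam and Cspg4 were higher, by 1.17 ± 0.152 and 1.64 ± 0.162 (adjusted p = 2.79e-05 and 2.92e-06), and Pdgfrb was not called (0.05 ± 0.145, adjusted p = 0.755).

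**Figure D4:**
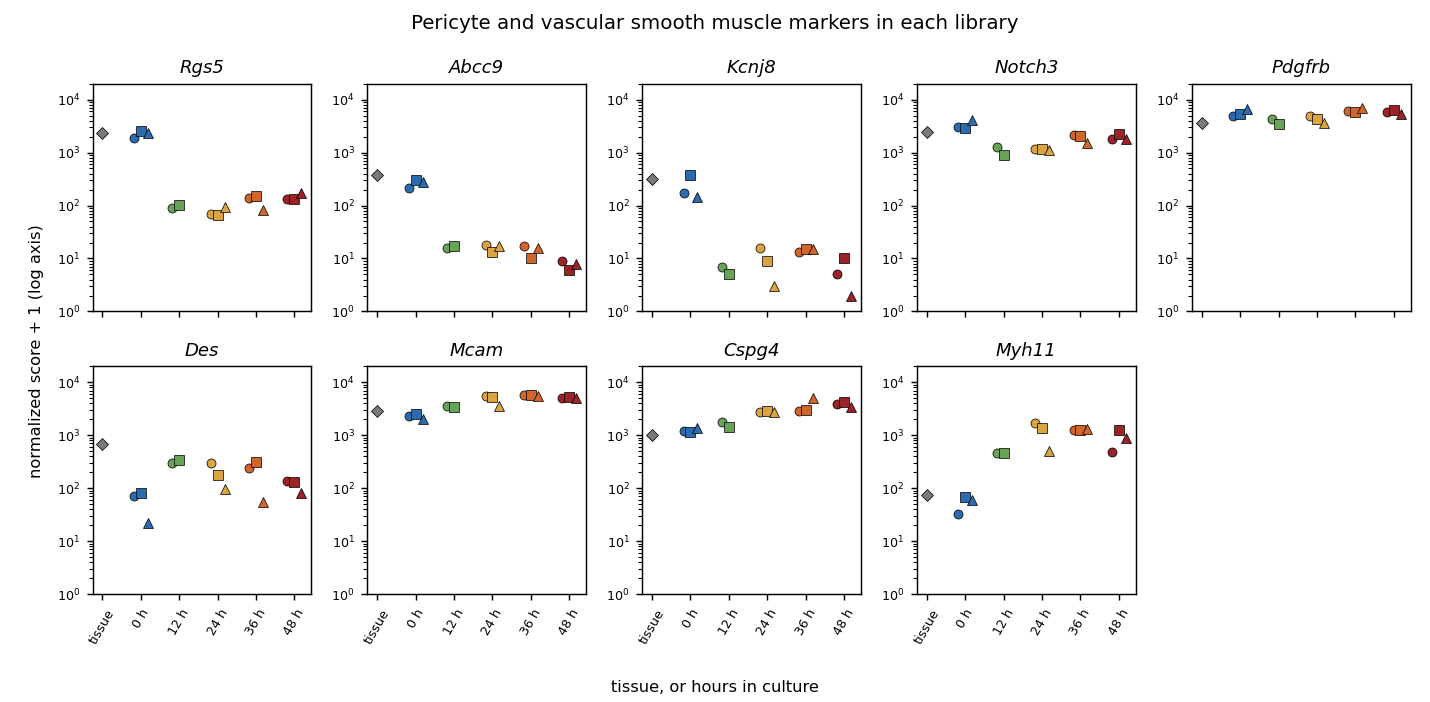
Score + 1 (log axis) of 9 markers of pericytes and vascular smooth muscle in each library, by tissue or hours in culture; circles, squares and triangles are replicates 1, 2 and 3, and the diamond is the tissue. Rgs5, Abcc9 and Kcnj8 drop between 0 h and 12 h, while Mcam, Cspg4 and Myh11 lie higher in culture than at 0 h.

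Markers of other cells changed over the same interval. Of all transcripts, 36.5% were higher and 33.5% lower at 48 h than at 0 h. All 8 endothelial markers and all 5 red cell markers with a row were lower at 48 h than at 0 h, with sums that went from between 9228 and 10902 to between 493 and 861 and from between 36048 and 61425 to between 22 and 58. Several of these genes, such as Cldn5 (0 to 3 in culture) and Alas2 (4 to 13), were under 1 ppm in all cultured libraries. Among the mDMC libraries they passed the filter through 0 h alone, so their calls as lower rest in part on the filter, and a fit with no filter is not given for them. The 4 macrophage markers summed to between 895 and 1258 at 0 h and between 331 and 384 at 48 h, with 3 lower, and the 8 epithelial markers to between 1514 and 14067 and between 370 and 1229, with 5 lower. The 10 skeletal and cardiac muscle genes summed to between 332 and 1188 at 0 h and between 1257 and 2887 at 48 h, where 6 were higher, among them the sarcomeric actin Acta1 (4.40 ± 0.795). Acta1 (3 to 15 at 0 h), Tnnt2 (4 to 13) and Tnnc1 (4 to 18) were under 1 ppm in all 0 h libraries and passed the filter through culture. For these genes a fit with no filter is not given, and the size for Acta1 is not given for other pseudocounts. The sum of the 10 contractile genes went from between 36780 and 39740 to between 441516 and 523628, with the capped scores included. The 9 dental mesenchyme markers with a row, which check the labelled cells, summed to between 66460 and 81783 at 0 h and between 45435 and 54423 at 48 h, with 6 lower, and Pax9 had the largest fall (-2.37 ± 0.234). The part of these changes in the rise of the contractile genes was not tested.

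Some genes other than the 10 had a profile over the 15 libraries much like that of the contractile genes. Pearson's r with the mean standardised profile of the 10 genes was 0.998 for Wsb2, 0.997 for Gm14005, 0.996 for Steap1, and 0.995 for both Pdlim7 and Gpr176. With Acta2 the highest values were 0.996 for Adamtsl5, 0.995 for Anxa1, Lgals3 and Itgb1, and 0.994 for Klf3. With Cnn1 they were 0.997 for Lims2 and Lmod1 and 0.996 for Gpr176, Pdlim5 and Crim1. Lims2, a partner of integrin-linked kinase, was listed at 0 to 1 at 0 h, at 0 in the tissue and at 267 to 627 in culture. Pdlim5, a PDZ-LIM protein of actin fibres, went from 536 to 673 at 0 h to 9217 to 20924 in culture. The libraries fall into a cultured and an uncultured cluster, which by itself gives high values of r, so these values describe a shared step and carry no test.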

How the data were processed

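RNA-seq libraries of mDMCs (14) and of dental mesenchymal tissue (1) were used, grouped by the sample labels. Reads were aligned to mouse transcripts (mm10) by bowtie and quantified by RSEM, and the authors tested genes in DESeq2. Their deposited table gives an expression score, a whole number, per library, with 1 Ensembl transcript per row. The scores share 1 distribution, with library totals of 21357605 to 21365980, by a step not given in the sources used here. Depth is unknown, so precision comes from replicates alone, and whether a score is per transcript or per gene is not stated. Of 12089 transcripts, 11973 matched a gene of GRCm38.

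Scores were taken as log2(score + 1), which understates changes of low genes. The 36 h replicates 1 and 2 were averaged, since the squared difference over the sum was 1.17 to 1.32 times what counting noise would give if the scores were counts, against 2.60 to 37.6 in the other 12 pairs. The design had foreseen 14 libraries. limma 3.58.1 (R 4.3.3) fitted 13 samples with 1 mean per time point and an eBayes trend, on 12079 transcripts with at least 1 ppm in at least 2 libraries, and calls used a Benjamini-Hochberg adjusted p below 0.05 over all of them. The step was tested on simulated data. Paralog differences used an exact permutation test (Python 3.11.15, scipy 1.17.1, numpy 2.4.6, pandas 2.3.3). Figures used matplotlib 3.10.9. The tissue entered no test. Same-numbered deviations correlated above 0.1 in each of 3 pairs for 24 h with 36 h (0.165, 0.142 and 0.127, where 36 h replicates 1 and 2 are nearly the same). They did so too for 24 h with 48 h (0.304, 0.201 and 0.318, not compared here), and in no other comparison. Pairs with different numbers ranged from -0.4775 to 0.4775 over all times, so these values do not show that the replicate numbers pair libraries.

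Named genes were all contractile genes, the 5 most correlated with their mean profile, with Acta2 and with Cnn1, the genes of the smooth muscle and Srf lists, and up to 4 with the largest change of each other list. A smooth muscle gene, a nonmuscle gene and a gene list that this rule or the design would name are not reported here, and the genes are still in the counts of their lists. Those with the largest replicate differences, and the genes at the ceiling, were named after their values were seen. The members and lists were chosen with earlier results of these data known. Alternatives were pseudocounts, filters, trimmed-mean scaling, normal scores of ranks, fits of 2 time points, a replicate block, eBayes without a trend, the study's threshold, each replicate left out and, added after seeing the data, the 36 h replicates kept separate. Protein sequences were not used here.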

Additional observations from a re-analysis of the deposited data

How the results depend on the processing

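All 10 contractile genes were higher than at 0 h at each culture time under each alternative tried and with each replicate left out (10 to 10; where this leaves 1 sample at 12 h or 36 h, it is assumed to vary like the other groups), except that with at least 1 ppm in all libraries Cnn1 was not tested and 9 of 9 were higher. Because the scores are capped at the ceiling, further change of Acta2, Tagln and Tpm1 cannot be seen, and the depth is unknown, so no counting interval is given. Between 24 h and 36 h, where the same-number pairs correlated above 0.1, the block changed no contractile call (0 of 10, with 1121 of all transcripts called against 1100). Over all times, 11 of 26 same-number pairs correlated above 0.1 (-0.25 to 0.318), and pairs with different numbers ranged from -0.4775 to 0.4775. With the replicate block, 10 of 10 stayed called at each time and 0 of 10 between neighbouring times, Des was called higher at 48 h (adjusted p = 0.00584) and 2 focal adhesion partners were lower at 48 h.

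Between neighbouring times, 1 of 10 contractile genes (Cnn2) was lower at 36 h than at 24 h when the 36 h replicates were kept separate (adjusted p = 0.0159), when only these 2 time points were compared (0.0452) and with the block and separate replicates (0.0192). In the last setting 1 (Tpm2) was also higher at 24 h than at 12 h (0.0398). Actn1 from 36 h to 48 h changed by 0.00068 with normal scores of ranks. With 1 replicate left out, the log2 changes that turned direction, none of them past the threshold in that direction, ranged for 24 h against 12 h from -0.25 to 0.052 (Actn1) and from -0.20 to 0.14 (Myl9), for 36 h against 24 h from -0.34 to 0.40 (Cnn1) and from -0.058 to 0.28 (Myl9), and for 48 h against 36 h from -0.058 to 0.041 (Actn1), from -0.074 to 0.042 (Cnn2), from -0.022 to 0.20 (Tpm2) and from -0.23 to 0.071 (Vcl). Against 0 h they ranged from -0.12 to 0.65 (Elk4) and from -0.54 to 0.70 (Mrtfb) at 12 h and from -0.038 to 0.18 (Pdgfrb) and from -0.083 to 0.24 (Srf) at 48 h. The cause was not tested.

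The paralog difference of Cnn1 and Cnn2 was 7.60 with a pseudocount of 0.1, 4.52 with one of 16, 7.21 with 48 h alone, where 3 against 3 libraries cannot go below p = 0.1 in the exact permutation test, and 7.01 to 7.18 with a library left out. That of Tpm1 and Tpm2 was 0.27 to 0.38 with a library left out and 0.0997 with 48 h alone (exact permutation test, p = 0.6). By unadjusted p and fold above 2, the study's threshold, 1475, 1673, 1877 and 1956 of all transcripts were higher than at 0 h (main 3471, 4124, 4041 and 4414), and 438, 476 and 155 were called in the neighbouring steps (main 782, 1100 and 0). That threshold called 3 Srf cofactor genes higher at 12 h and 0 lower there, 1 lower at 48 h, and 0 focal adhesion partners and 0 nonmuscle genes lower. The step from 12 h to 24 h gave 162 with only these time points and 97 to 759 with a replicate left out, lowest without 12 h replicate 1. The step from 24 h to 36 h gave 2375 with 36 h replicates separate, 2495 with the block as well, and 132 to 1336 with a replicate left out. The step from 36 h to 48 h gave 3 with them separate, 7 with the block as well, 1 with at least 1 ppm in all libraries, 1 without a trend, 1 with normal scores of ranks, and 0 to 17 with a replicate left out. Focal adhesion partners lower at 48 h were 0 with only these time points, 2 with trimmed-mean scaling, 2 with the block and separate replicates and 0 to 2 with a replicate left out, and those lower at 12 h were 1 to 3. Other smooth muscle genes lower were 1 at 12 h and 1 at 48 h with at least 1 ppm in all libraries, and 1 to 2 at 12 h with a replicate left out. Nonmuscle genes lower at 48 h were 0 to 1 and Srf cofactor genes 1 to 4 with a replicate left out.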
